A study of Mus musculus with 17 samples.

Results

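The genes described are 5 that encode Polycomb repressive complex 2 (PRC2) or its partner: Suz12, Ezh1, Ezh2, Eed and Jarid2. They were picked by gene symbol from the 22180 genes of a mouse array study, after earlier results of the same arrays were known. The choice turned on the genotype by tissue interaction, in which Suz12 was the 1 gene of 22180 (0.00451%) to pass a limma adjusted p of 0.05. The interaction and the genotype differences it is made of are therefore given as values with no test. The 2 contrasts tested for the members are the average tissue difference and the average doxycycline difference, which do not use the genotype difference. They do share its estimate of the spread. Suz12 was chosen in part by a small SE, so its p-values in these 2 contrasts are not free of the choice.

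PRC2 adds methyl groups to lysine K27 of histone H3 and keeps developmental genes silent. Its core holds a catalytic subunit, which is either Ezh1 or Ezh2, together with Suz12 and Eed. Ezh2 is the enzyme of dividing cells, and Ezh1 is the form that prevails in many cells that have stopped dividing. In blood formation the complex restrains the program of stem and progenitor cells. Eosinophils mature in the marrow and enter tissues as cells that no longer divide.

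The study measured RNA of sorted eosinophils on 17 arrays, and the sort gate took CD45+ cells with surface Siglec-F and CCR3. Every mouse carried the CC10-IL13 transgene (CC10-IL13Tg), which makes interleukin-13 when doxycycline (Dox) is given in the food. CC10 is a gene of airway club cells, so the promoter of the transgene is not one of the eosinophil. Pirb-/- mice (KO) lack PIR-B, a receptor that dampens signalling in myeloid cells, and Pirb+/+ littermates (WT) were the comparison. The groups were KO and WT esophagus with Dox, with 3 arrays each, KO and WT marrow with Dox, with 3 arrays each, and marrow without Dox, with 3 KO arrays and 2 WT arrays. Per the labels, the mice were males and females of 6 to 8 weeks and received Dox for 2 weeks. No label gives the sex of a sample, and none states if a replicate is 1 animal or several pooled. The p-values therefore rest on the spread between samples, which may be technical in part. There was no esophageal group without Dox.

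Values are the authors' log values, taken here as log2. In nearly every probe set 0 lies midway between 2 neighbouring arrays near the median, and this centre is called the median array here. A value therefore says how far an array lay above or below that centre, and levels of different genes cannot be compared. In sorted bulk RNA, fewer cells of a type and less RNA per cell cannot be told apart. KO marrow replicate 3 without Dox stood apart from all other arrays: its values over genes had an SD of 0.802, where other marrow arrays had 0.231 to 0.284 and esophageal ones 0.511 to 0.611. It correlated with its own group at a mean r of -0.03. It lies outside the tissue contrast but enters the shared estimate of the spread, so results are given with and without it. Averaged over genotypes, the sort marker Siglecf was higher in esophagus than in marrow with Dox (0.73 ± 0.11, SE, limma adjusted p = 0.000472). The granule genes Epx and Prg2 were lower (-3.50 ± 0.29, limma adjusted p = 2.89e-06, and -2.86 ± 0.25, adjusted p = 4.89e-06). Siglecf differed by 1.14 ± 0.16 in KO and by 0.32 ± 0.16 in WT (95% interval -0.03 to 0.66). Ccr3, the other sort marker, differed by 1.02 ± 0.56 in KO and 0.64 ± 0.56 in WT. The mean of 9 eosinophil markers per array was -0.34 to 0.13 in KO esophagus and -0.88 to -0.32 in WT esophagus. In marrow with Dox that mean was 0.09 to 0.44 in KO and 0.15 to 0.39 in WT. Pirb itself read 0.77 to 1.20 in KO esophagus and 0.75 to 2.17 in WT esophagus, and the ranges overlap. The sources used here do not say if its probes lie in the deleted part, so this does not check the genotype labels.

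The promoter windows of the 3 members that passed the test of the tissue difference below show how the proliferation-linked enzyme and its counterpart differ in sequence. The windows are those of RefSeq on GRCm38.p6 and run from 250 bases before to 50 bases after the annotated start. They are Suz12 at chr11:79992856-79993155 (plus strand), Ezh2 at chr6:47594981-47595280 (minus strand) and Ezh1 at chr11:101226414-101226713 (minus strand). Capitals mark 3 motifs tied to cell cycle genes, searched on both strands: the E2F motif (as TTCCCGC, as TTCGCGC, as TTGCCGC or as TTGGCGC), the CCAAT box (read as CCAAT) and the cell cycle homology region (read as TTTGAA).
Suz12: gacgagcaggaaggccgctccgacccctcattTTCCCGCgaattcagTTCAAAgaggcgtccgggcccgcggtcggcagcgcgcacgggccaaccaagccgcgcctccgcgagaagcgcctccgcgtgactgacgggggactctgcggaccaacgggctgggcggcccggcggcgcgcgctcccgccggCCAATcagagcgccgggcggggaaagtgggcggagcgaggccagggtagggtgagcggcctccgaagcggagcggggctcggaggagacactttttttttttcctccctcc
Ezh2: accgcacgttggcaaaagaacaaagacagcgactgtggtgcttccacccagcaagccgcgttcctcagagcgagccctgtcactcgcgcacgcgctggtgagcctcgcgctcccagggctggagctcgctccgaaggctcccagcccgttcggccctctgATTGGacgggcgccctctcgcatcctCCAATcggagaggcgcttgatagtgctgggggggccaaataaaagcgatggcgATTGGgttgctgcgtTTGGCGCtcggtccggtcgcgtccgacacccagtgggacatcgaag
Ezh1: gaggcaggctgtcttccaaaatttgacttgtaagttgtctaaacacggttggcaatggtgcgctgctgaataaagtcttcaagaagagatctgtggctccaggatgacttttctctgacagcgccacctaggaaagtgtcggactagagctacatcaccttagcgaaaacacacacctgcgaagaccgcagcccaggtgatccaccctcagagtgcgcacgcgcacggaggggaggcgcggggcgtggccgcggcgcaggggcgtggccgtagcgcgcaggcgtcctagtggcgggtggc

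The Suz12 window held 1 match of each motif, none overlapping another. The Ezh2 window held 1 E2F match, 3 CCAAT boxes and no TTTGAA, again with no overlap. The Ezh1 window held no match of any of the 3. The Eed window held no E2F match, 1 CCAAT box and 2 matches of TTTGAA, and each of the 2 Jarid2 windows held 1 CCAAT box and no E2F match. Of 32851 mouse promoter windows of the same length, 9.57% held an E2F match, 37.4% a CCAAT box and 17.9% a TTTGAA, so the E2F match was the least common of the 3. A match is a description of letters and not a site shown to be bound.

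With Dox, esophageal eosinophils had less Suz12 and Ezh2 RNA than marrow eosinophils and slightly more Ezh1 RNA, averaged over both genotypes. The differences were -1.35 ± 0.08 for Suz12, -1.46 ± 0.37 for Ezh2 and 0.40 ± 0.13 for Ezh1 (SE, log2, 6 arrays against 6). On a log2 scale these are 2.56-fold and 2.75-fold lower and 1.32-fold higher. By limma with Benjamini-Hochberg adjustment over all genes, 3 of the 5 members passed, 1 higher and 2 lower, where 29.9% of all genes passed, 17.7% higher and 12.2% lower. Without the outlying array all 5 passed, 1 higher and 4 lower, where 47.1% of all genes passed, 31.9% higher and 15.2% lower. The Ezh1 call depended on the scaling: 0 members were higher and 3 lower after quantile normalization, where 13.4% of all genes were higher and 12.6% lower. After centring on array medians 0 were higher and 2 lower, where 12.8% of all genes were higher and 13.5% lower. The members' median difference was -0.45, against 0.10 over all genes.

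**Figure D1:**
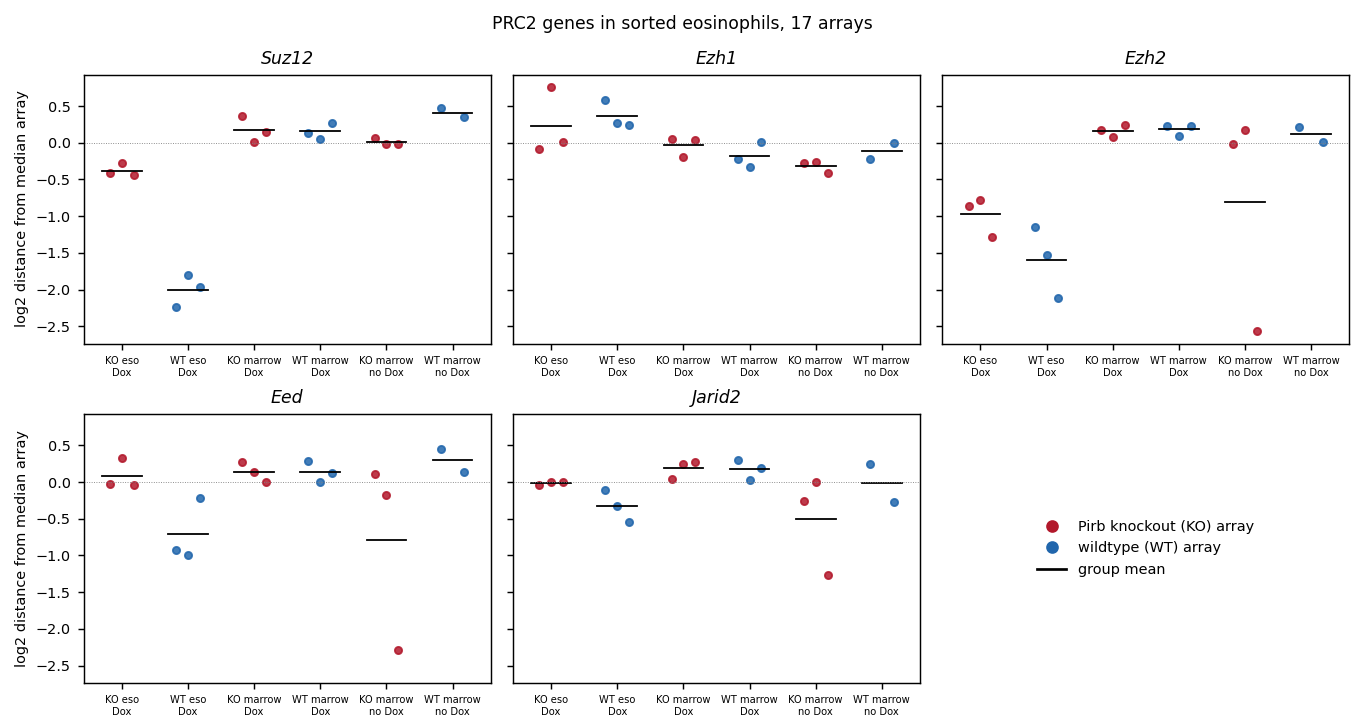
Value of each PRC2 member on every array, in log2 units from the median array (vertical axis), by group (horizontal axis), with group means as bars. Suz12 lies between -2.24 and -1.80 on the WT esophageal arrays and no lower than -0.44 on any other array, and 1 KO marrow array without Dox lies far below its group for Ezh2, Eed and Jarid2.

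Suz12, the scaffold subunit that holds the complex together and stabilises it, gave the widest separation of the esophageal arrays. It read -0.42, -0.28 and -0.44 in KO esophagus and -2.24, -1.80 and -1.97 in WT esophagus. In marrow with Dox it read 0.37, 0.01 and 0.14 in KO and 0.13, 0.06 and 0.27 in WT. In marrow without Dox it read 0.07, -0.01 and -0.01 in KO and 0.47 and 0.35 in WT. All 6 esophageal arrays were below all 11 marrow arrays, and the WT esophageal arrays were far below the KO ones. The average tissue difference had an adjusted p of 2e-07, which was 2.12e-07 without the outlying array, on which Suz12 itself was not displaced. Both rest on the small spread that helped to choose the gene, so they may be too low.

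Ezh2, the catalytic subunit of dividing cells, read -0.87, -0.78 and -1.28 in KO esophagus and -1.15, -1.53 and -2.11 in WT esophagus. The marrow arrays with Dox gave 0.17, 0.08 and 0.25 in KO and 0.23, 0.09 and 0.23 in WT. In marrow without Dox it read -0.01, 0.17 and -2.57 in KO and 0.22 and 0.01 in WT. The esophageal arrays of both genotypes lay below every marrow array except the outlying one, which was lower than any esophageal array. The adjusted p of the tissue difference was 0.0118, and 9.99e-06 without that array, where the SE was 0.14 in place of 0.37.

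Ezh1, the paralogous catalytic subunit, ran the other way. It read -0.09, 0.76 and 0.00 in KO esophagus and 0.59, 0.26 and 0.25 in WT esophagus. In marrow with Dox it read 0.05, -0.19 and 0.04 in KO and -0.22, -0.33 and 0.00 in WT. In marrow without Dox it read -0.28, -0.26 and -0.42 in KO and -0.22 and 0.00 in WT. The WT arrays of the 2 tissues did not overlap, while the KO arrays did, with KO esophagus replicate 2 at 0.76 far above the other 2. The adjusted p was 0.0371, and 0.0283 without the outlying array. The call was lost under quantile normalization (adjusted p = 0.0787) and under centring on array medians (0.33, adjusted p = 0.108). It was also lost on leaving out any of 6 single arrays: WT marrow with Dox replicate 1 (adjusted p = 0.0734) or 2 (0.0828), KO marrow with Dox replicate 1 (0.0562), 2 (0.0816) or 3 (0.0563), and WT esophagus replicate 1 (0.0687).

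Eed, which binds methylated K27 and stimulates the enzyme, read -0.03, 0.32 and -0.04 in KO esophagus and -0.92, -0.998 and -0.22 in WT esophagus. In marrow with Dox it read 0.28, 0.13 and 0.00 in KO and 0.28, 0.00 and 0.13 in WT. In marrow without Dox it read 0.11, -0.18 and -2.28 in KO and 0.45 and 0.14 in WT. The WT esophageal arrays lay below all others but the outlying one, and the KO esophageal arrays overlapped marrow. The tissue difference of -0.45 ± 0.32 did not pass (95% interval -1.15 to 0.24, adjusted p = 0.282). Without the outlying array the SE was 0.13 and the adjusted p was 0.0166.

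Jarid2, an accessory subunit that helps recruit the complex to chromatin and has lost the demethylase activity of its protein family, read -0.04, 0.00 and 0.00 in KO esophagus and -0.10, -0.33 and -0.54 in WT esophagus. The marrow arrays with Dox gave 0.05, 0.24 and 0.27 in KO and 0.31, 0.03 and 0.19 in WT. In marrow without Dox it read -0.26, 0.01 and -1.26 in KO and 0.25 and -0.27 in WT. In each genotype the esophageal arrays lay below the marrow arrays with Dox, and by little in KO. The tissue difference of -0.35 ± 0.18 did not pass (95% interval -0.73 to 0.03, adjusted p = 0.143). Without the outlying array the adjusted p was 0.0143.

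In each genotype taken alone, the tissue differences were larger in WT for all 5 members, and they are given here as a description because their contrast is the interaction. The esophagus minus marrow difference of Suz12 was -0.55 ± 0.12 in KO and -2.16 ± 0.12 in WT, or 1.47-fold and 4.46-fold lower. That of Ezh2 was -1.14 ± 0.53 in KO and -1.78 ± 0.53 in WT. Ezh1 differed by 0.26 ± 0.19 in KO and 0.55 ± 0.19 in WT. Eed differed by -0.05 ± 0.45 in KO and -0.85 ± 0.45 in WT, and Jarid2 by -0.20 ± 0.25 in KO and -0.50 ± 0.25 in WT. The SEs of Ezh2, Eed and Jarid2 in each genotype were 0.20, 0.19 and 0.14 without the outlying array. In KO the arrays of the 2 tissues did not overlap for 3 members, all lower in esophagus, where 16% of all genes were so separated and lower. In WT they did not overlap for all 5, with 4 lower and 1 higher, where 13.1% of all genes were separated and lower and 33% separated and higher.

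**Figure D2:**
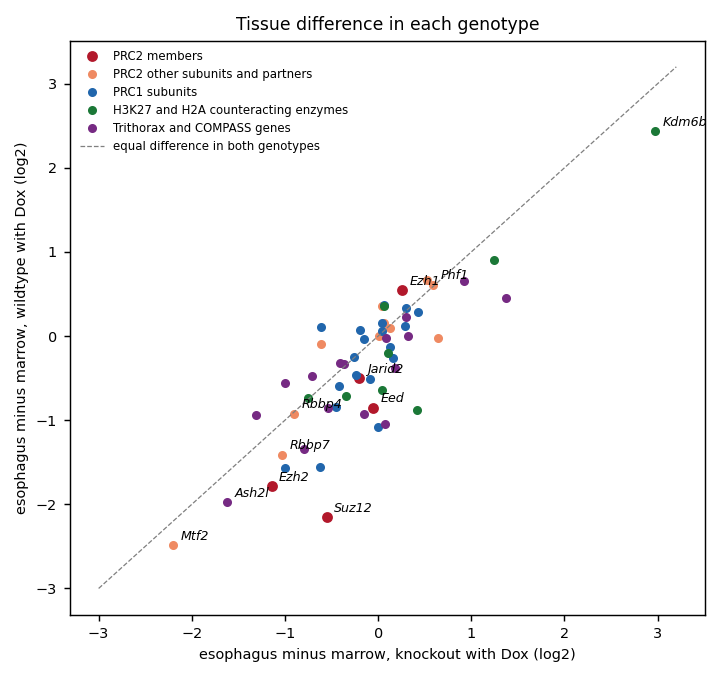
Esophagus minus marrow difference with Dox, in log2 units, in KO (horizontal axis) and in WT (vertical axis), one point per gene of 5 chromatin gene lists. The dashed line marks equal differences; Suz12 lies below it at -0.55 in KO and -2.16 in WT, while Kdm6b lies at the upper end.

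The interaction, which is the KO minus WT difference in esophagus less the same difference in marrow with Dox, was 1.60 ± 0.16 for Suz12. It was the value that chose the gene. There were 75 genes with a larger interaction and 22104 with a smaller one, so Suz12 stood out by a large value with a small SE and not by the largest value. The interaction was 0.80 ± 0.64 for Eed, 0.64 ± 0.74 for Ezh2, 0.30 ± 0.36 for Jarid2 and -0.29 ± 0.27 for Ezh1. Without the outlying array the SEs of Eed, Ezh2 and Jarid2 were 0.27, 0.28 and 0.20. The members' median was 0.64, against -0.07 over all genes and -0.18 over the cell cycle list described below.

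**Figure D3:**
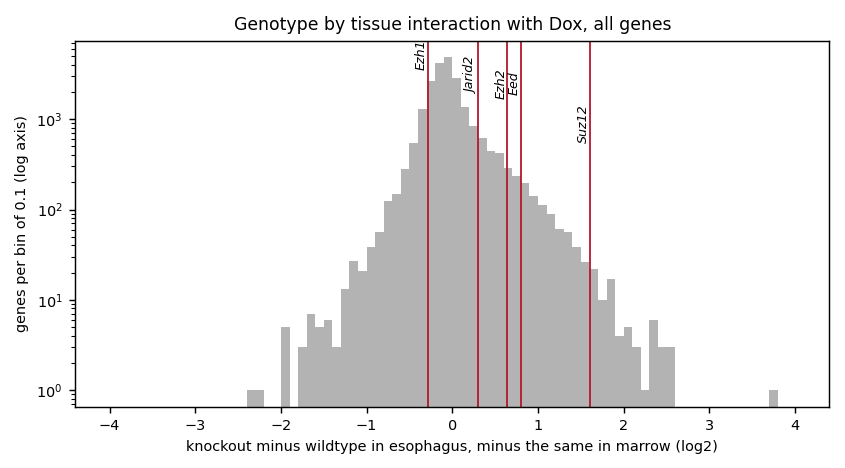
Distribution of the genotype by tissue interaction with Dox over all 22180 genes, in log2 units (horizontal axis), as genes per bin on a log axis. Red lines mark the 5 members, with Suz12 at 1.60 near the upper end, Ezh1 at -0.29 and the other 3 between 0.30 and 0.80.

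In esophagus with Dox, Suz12 was higher in KO than in WT by 1.62 ± 0.12, or 3.08-fold, with group means of -0.38 ± 0.09 in KO and -2.0 ± 0.22 in WT (SD, n = 3 each). Eed was higher by 0.80 ± 0.45, Ezh2 by 0.62 ± 0.53 and Jarid2 by 0.31 ± 0.25, while Ezh1 differed by -0.14 ± 0.19. The SEs of Eed, Ezh2 and Jarid2 were 0.19, 0.20 and 0.14 without the outlying array, which is in neither group. The arrays of the 2 genotypes did not overlap for Suz12, Eed and Jarid2, all higher in KO, where 5.67% of all genes were so separated and higher. The count is a description only, since Suz12 was chosen by this difference, and the gap of Jarid2 was narrow. For Ezh2 the arrays of the genotypes overlapped, with KO replicate 3 at -1.28 below WT replicate 1 at -1.15. Under quantile normalization the Suz12 difference was 0.72 and the interaction 0.74, smaller than on the deposited scale and with the same sign.

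Eosinophil markers also differed between the same arrays. Of 9 measured, 7 were higher in KO esophagus than in WT esophagus, with a median difference of 0.47 against -0.10 over all genes, and their mean per array was -0.34 to 0.13 in KO and -0.88 to -0.32 in WT. The sort marker Siglecf read 0.77, 1.26 and 1.32 in KO esophagus and 0.33, 0.07 and 0.11 in WT esophagus, a difference of 0.95 ± 0.16. Prg2, which encodes the granule's major basic protein, differed by 1.32 ± 0.35, and Epx, the eosinophil peroxidase gene, by -0.06 ± 0.41. The part of the eosinophil content of the sorted cells in the Suz12 difference was not tested.

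Of 3 Y-linked genes, Kdm5d and Uty separated the genotypes in the same arrays and Eif2s3y did not. Kdm5d read 1.10, 0.37 and -0.29 in KO esophagus and -0.33, -1.42 and -1.10 in WT esophagus. Uty read 0.28, 0.41 and -0.28 in KO and -0.69, -0.94 and -0.60 in WT, so neither gene's KO and WT arrays overlapped. Eif2s3y read 1.12, 0.68 and 0.07 in KO and 1.43, 0.36 and -0.04 in WT, with a KO minus WT difference of 0.04 ± 0.35. With the mean of these 3 genes as a covariate, the Suz12 difference was 1.72, the Eed difference 0.28, the Jarid2 difference -0.01 and the Ezh2 difference -0.28. The part of the mice's sex in these differences was not tested.

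In marrow with Dox the genotypes differed little for any member. The KO minus WT difference was 0.02 ± 0.12 for Suz12, 0.15 ± 0.19 for Ezh1, -0.02 ± 0.53 for Ezh2 and 0.01 ± 0.25 for Jarid2. The SEs of Ezh2 and Jarid2 were 0.20 and 0.14 without the outlying array. Eed averaged 0.14 ± 0.14 in KO and 0.14 ± 0.14 in WT (SD, n = 3 each). The arrays of the genotypes overlapped for all 5, where 4.11% of all genes were separated and higher in KO and 7.62% separated and lower.

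In marrow without Dox the KO values were the lower ones. Suz12 averaged 0.01 ± 0.05 in KO (SD, n = 3) and 0.41 ± 0.09 in WT (SD, n = 2), and the difference was -0.39 ± 0.13, or -0.38 without the outlying array. For Ezh2 it was -0.92, for Eed -1.08 and for Jarid2 -0.49. Without the outlying array the same differences were -0.03, -0.33 and -0.12, so most of each rested on that array. For Ezh1 it was -0.21, and -0.16 without it. The KO arrays lay wholly below the WT arrays for Suz12, Ezh1 and Eed, where 5.72% of all genes did.

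Dox made no difference to the members that passed the test in marrow. The Dox minus no Dox difference averaged over genotypes was -0.05 ± 0.09 for Suz12, 0.11 ± 0.14 for Ezh1, 0.52 ± 0.39 for Ezh2, 0.38 ± 0.34 for Eed and 0.44 ± 0.19 for Jarid2. By limma, 0 of 5 passed after adjustment, where 0.234% of all genes passed, and 3855 genes had an unadjusted p under 0.05. Among the members only Jarid2 did, and its limma adjusted p was 0.271. Without the outlying array the differences of Ezh2, Eed and Jarid2 were 0.08, 0.01 and 0.25. The intervals for Suz12 (-0.24 to 0.14) and Ezh1 (-0.20 to 0.41) leave little room for a large change of the average. Those for Ezh2 (-0.33 to 1.37) and Eed (-0.35 to 1.12) leave more. The average can hide opposite signs in the genotypes, which were not tested apart. The Dox difference of Suz12 was 0.16 ± 0.12 in KO and -0.25 ± 0.13 in WT. That of Ezh1 was 0.28 ± 0.19 in KO and -0.07 ± 0.21 in WT. Eed gave 0.92 ± 0.45 in KO, or 0.17 without the outlying array, and -0.16 ± 0.51 in WT. Ezh2 and Jarid2 were above 0 in both. The marrow arrays with Dox serve in both this contrast and the tissue contrast.

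The remaining PRC2 genes moved unevenly between tissues. Of 11 other subunits and partners, 2 were higher and 3 lower in esophagus by limma, where 17.7% of all genes were higher and 12.2% lower. The counts were again 2 and 3 without the outlying array, where 31.9% and 15.2% of all genes passed. Mtf2, a Polycomb-like protein that brings PRC2 to CpG-rich DNA, read -2.31, -0.72 and -2.23 in KO esophagus and -2.01, -2.46 and -2.63 in WT esophagus. In marrow with Dox it read 0.46, 0.57 and 0.32 in KO and 0.19, 0.06 and 0.10 in WT, so that the tissues were far apart in both genotypes (-2.34 ± 0.44, adjusted p = 0.00183). The histone-binding subunits Rbbp7 and Rbbp4, which also serve other chromatin complexes, were lower (-1.22 ± 0.22, adjusted p = 0.00134, and -0.91 ± 0.16, adjusted p = 0.00123). The 2 probe sets of Rbbp4 gave -0.35 and -1.48, and with the lower-numbered probe set alone its adjusted p was 0.0699.

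Phf1, another Polycomb-like protein, was higher in esophagus by 0.60 ± 0.09 (adjusted p = 0.000558). It read 0.29, 0.26 and 0.40 in KO esophagus and 0.51, 0.06 and 0.53 in WT esophagus, and -0.48 to -0.13 across the 6 marrow arrays with Dox. Ezhip, an inhibitor of the Ezh2 enzyme known from germ cells, was higher by 0.59 ± 0.08 (adjusted p = 0.000108). The differences of Aebp2 (0.11, adjusted p = 0.419), Phf19 (0.01, 0.943), Epop (0.20, 0.291), Lcor (0.31, 0.565), Lcorl (-0.35, 0.25) and Skida1 (0.11, 0.0986) did not pass by limma. Thus 2 Polycomb-like genes, Mtf2 and Phf1, differed between tissues with opposite signs.

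**Figure D4:**
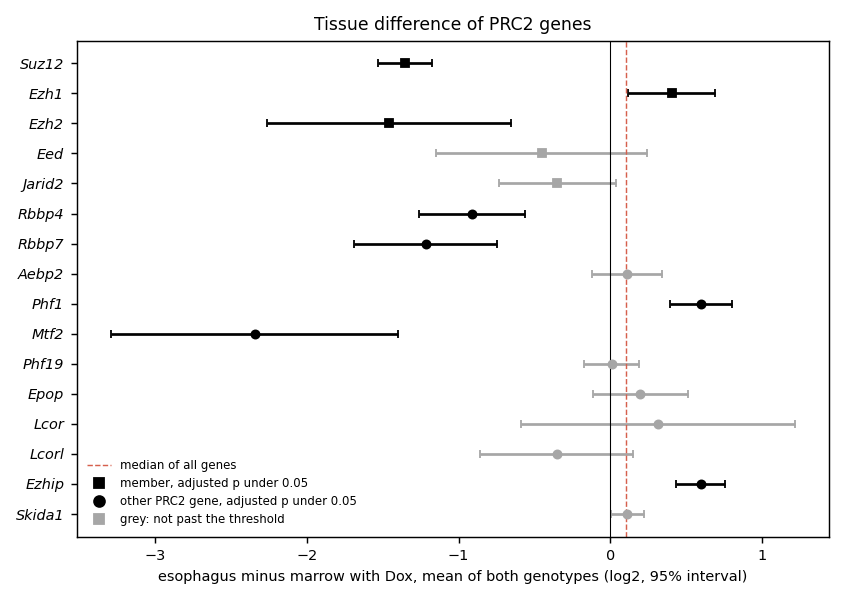
Esophagus minus marrow difference with Dox, averaged over KO and WT, for the 5 members (squares) and 11 other PRC2 genes (circles), in log2 units with 95% intervals. Black symbols passed an adjusted p of 0.05; Mtf2 lies lowest at -2.34, Ezh2 and Suz12 at -1.46 and -1.35, and Phf1, Ezhip and Ezh1 are the black symbols above 0.

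Among enzymes that oppose Polycomb marks, 2 of 8 were higher and 1 lower in esophagus, near the shares over all genes of 17.7% and 12.2%. Kdm6b, which removes methyl groups from K27, read 3.11, 2.79 and 2.69 in KO esophagus and 3.09, 1.01 and 2.85 in WT esophagus. Every marrow array read below 0 for it, and the difference was 2.70 ± 0.27 (adjusted p = 1.56e-05 by limma). Usp16, which removes ubiquitin from histone H2A, was higher by 1.07 ± 0.11 (adjusted p = 2.63e-05), and Asxl2, a partner of the H2A deubiquitinase Bap1, was lower (-0.53 ± 0.15, adjusted p = 0.0184). The list's median of -0.14 turned to 0.02 under quantile normalization, so the list as a whole has no direction.

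Of 19 measured PRC1 subunits, 1 was higher and 4 lower, where 17.7% of all genes were higher and 12.2% lower, and the median was -0.09. PRC1 is the partner complex that places ubiquitin on H2A. Among the 5 that passed, the 3 largest differences were those of Pcgf1 (-1.28 ± 0.42, adjusted p = 0.0357), Pcgf6 (-0.65 ± 0.16, adjusted p = 0.00911) and Scmh1 (-0.51 ± 0.15, adjusted p = 0.0247). Pcgf1 and Pcgf6 are alternative core subunits, and Scmh1 is another of the listed PRC1 genes. The Pcgf1 call was lost on leaving out replicate 1 or 3 of KO esophagus, 2 or 3 of WT esophagus, 1 or 3 of KO marrow with Dox, or 1 or 3 of WT marrow with Dox (adjusted p = 0.0635 to 0.0841), and with the Y-linked covariate (adjusted p = 0.0556). The Scmh1 call was lost on leaving out replicate 3 of KO esophagus, 2 or 3 of WT esophagus, 3 of KO marrow with Dox, or 1 or 2 of WT marrow with Dox (adjusted p = 0.0522 to 0.0625).

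Of 16 measured Trithorax and COMPASS genes, some of whose products place active marks on histones, 2 were higher and 8 lower. Over all genes 17.7% were higher and 12.2% lower, and the list's median was -0.42. The shared subunits Ash2l and Wdr5 were lower (-1.80 ± 0.34, adjusted p = 0.00204, and -1.12 ± 0.17, adjusted p = 0.000499). The methyltransferase Kmt2c was higher (0.91 ± 0.27, adjusted p = 0.0238), and this call was lost on leaving out KO marrow with Dox replicate 1 (adjusted p = 0.0507) or 2 (0.0528), or KO esophagus replicate 1 (0.0528). Under quantile normalization 0 of the list were higher and 6 lower, with Kmt2c at an adjusted p of 0.0606. Lower values in esophagus were thus found among genes that oppose PRC2 as well as within it.

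Textbook targets of PRC2 showed small differences. Of 31 measured, 10 were higher and 0 lower in esophagus, where 17.7% of all genes were higher and 12.2% lower, and the median was 0.21 against 0.10 over all genes. Under quantile normalization and under median centring alike, 6 were higher and 1 lower, where 13.4% and 12.8% of all genes were higher. Cdkn2a, a cell cycle brake that PRC2 silences, differed by 0.12 (adjusted p = 0.487 by limma), and Hoxa9, a homeobox gene of blood progenitors, by 0.00 (adjusted p = 0.979). Between genotypes in esophagus the targets' median was -0.16, against -0.10 over all genes, and 29 of 31 values were negative, as were 69.9% over all genes. After quantile normalization the median was -0.05 and 22 were negative, as were 56.7% over all genes.

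Cell cycle genes moved with Ezh2 and Suz12 between tissues. Of 31 measured, 0 were higher and 28 lower in esophagus, where 12.2% of all genes were lower, and the median was -2.36. Mki67 differed by -2.06 (adjusted p = 1.32e-06), Top2a by -4.21 (3.78e-07), Pcna by -1.62 (0.000279) and Mcm5 by -2.39 (2.52e-06), all by limma. The list's mean per array was -1.97 to -1.87 in KO esophagus and -1.87 to -1.86 in WT esophagus, against 0.34 to 0.41 in KO marrow with Dox and 0.18 to 0.40 in WT marrow with Dox. The list's means in esophagus were thus nearly equal in the 2 genotypes, though centred values cannot show whether they lay near background there. The part of the cell cycle in the genotype difference of Suz12 was not tested.

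Markers of immature and other cells moved between tissues as well. Over all genes 17.7% were higher and 12.2% lower in esophagus, and of 8 myeloid progenitor markers 0 were higher and 6 lower. The mean of these 8 per array was -2.69 to -2.47 in KO esophagus and -2.64 to -2.50 in WT esophagus. In marrow with Dox it was 0.12 to 0.26 in KO and 0.06 to 0.30 in WT. Of 10 neutrophil markers 1 was higher and 8 lower, with means of -2.02 to -1.92 in KO esophagus and -3.11 to -2.05 in WT esophagus. Of 9 monocyte and macrophage markers 1 was higher and 6 lower, and of 5 epithelial markers 4 were higher and 0 lower. The mean of 6 fibroblast and endothelial markers was 0.39 to 0.59 in KO esophagus and 0.24 to 0.40 in WT esophagus. In marrow with Dox that mean was -0.084 to -0.076 in KO and -0.08 to -0.03 in WT. Centred values cannot show whether a marker was at or near background. The part of these cells, of maturity and of the different tissue preparation in the members' tissue difference was not tested.

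**Figure D5:**
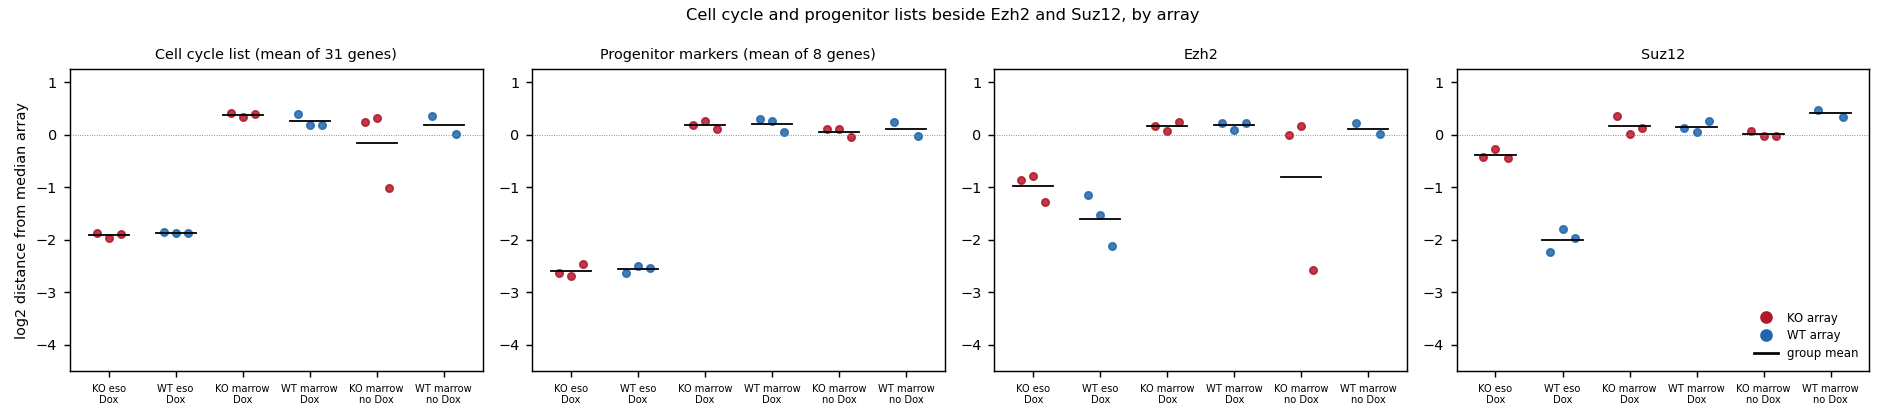
Mean of the cell cycle list, mean of the progenitor markers, Ezh2 and Suz12 on every array, in log2 units from the median array (vertical axes), by group. The cell cycle mean lies near -1.9 on all 6 esophageal arrays, while Suz12 is lower on the 3 WT esophageal arrays than on the 3 KO ones.

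The members differed in which genes ran most like them over the 16 arrays other than the outlying one. Suz12 was most like Tram1 (Pearson r = 0.975), Psma1 (0.973) and Hspa9 (0.972) and least like Krtap17-1 (-0.961). Ezh2 was most like the granule gene Prg2 (0.981), Nme1 (0.980) and Nasp (0.975) and least like Trim47 (-0.964). Eed was most like Fmr1 (0.916), Nedd4 (0.912) and Nbn (0.890) and least like Rimbp3 (-0.931). Jarid2 was most like Sumo2 (0.897), Spast (0.862) and Ddhd2 (0.855) and least like Gm14204 (-0.936), and Ezh1 was most like Parp4 (0.894), P3h2 (0.892) and Clk1 (0.859) and least like Palm (-0.914). All these values share the split between the 2 tissues and serve only as a description. With all 17 arrays the nearest gene to Suz12 was Plpp5 (0.949).

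Between members, the correlation over the same 16 arrays was 0.88 for Suz12 with Ezh2, 0.85 for Suz12 with Eed, 0.62 for Ezh2 with Eed and -0.59 for Ezh1 with Ezh2. Over the 10 marrow arrays among them it was 0.24 for Suz12 with Ezh2, 0.75 for Suz12 with Eed and 0.30 for Ezh1 with Ezh2. The likeness of Suz12 and Ezh2 was thus weaker over the marrow arrays, and the opposition of Ezh1 and Ezh2 was not seen there. Ezh2 varied little over those arrays, and no correlation was taken within esophagus.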

How the data were processed

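Eosinophils were sorted from esophagus and marrow, and their RNA went through RNeasy columns, the Nugen Ovation One-Direct kit and Nugen Encore Biotin labelling, per the labels' protocols. The submitters' processing notes name Affymetrix Expression Console. No source used here gives its version, the summarization or any scaling between arrays. The authors deposited log values, read here as log2 because no source states the base. They hold 33793 probe sets on 17 arrays, and 0 array columns were left unused. In 97.1% of probe sets a pair of neighbouring sorted values was equal and opposite within 2e-05, so each probe set had been centred on its median array. The submitters had dropped 1 WT marrow array without Dox, whose hybridization signal was low per the design text.

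Of the probe sets, 23521 had 1 gene symbol, 1814 several and 8458 none. Symbols were updated by Entrez ID for 23328, which left 22180 genes. The mean was used for the 1082 genes with several probe sets. Each member had 1 probe set. No filter on dim probes was possible, since centring removes brightness.

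A single fit in limma 3.58.1 with eBayes (R 4.3.3) gave a mean to each of 6 groups, and two-sided p-values were adjusted over all genes by Benjamini-Hochberg. The SEs are those of that fit, and the number of arrays limits the precision. No array was a duplicate, with the closest pair of a group at r = 0.832. On simulated data of 22180 genes for the tissue contrast, 100 genes were changed at each size. Of changes of size 1, 81% were recovered, and of size 2, 96%. The count of unchanged genes called was given as 10 for both sizes. Far fewer genes were changed there than passed in the real contrast. The members, lists and tests were chosen with earlier results of these data known. The text names all members and other PRC2 genes, up to 3 called genes with the largest tissue difference per further list, preset cell cycle, target and Y-linked genes, and the genes most and least like each member. Alternatives were quantile normalization, array median centring, fits on only the groups compared, array weights, robust eBayes, a Y-linked covariate, replicate blocks, single probe sets and leaving out arrays. The list counts without the outlying array and the tissue and Dox differences within each genotype were added after seeing the data. Sequences are from RefSeq on GRCm38.p6, which held a window for all 5 members.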

Additional observations from a re-analysis of the deposited data

Results flagged for a closer look

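The KO minus WT difference of Suz12 differed between esophagus and marrow with Dox by 1.60, which is the interaction that led to its choice and is given with no test. The Suz12 difference also differed between esophagus with Dox and marrow without Dox, by 2.02: every KO array was above every WT array in esophagus and below every WT array in marrow without Dox. For Eed the same held, with a gap of 1.88 between the 2 settings. These last 2 differences were not tested, tissue and Dox change together in them, and the WT group without Dox had 2 arrays. For Eed the marrow difference was -1.08 with KO replicate 3 and -0.33 without it.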

How the results depend on the processing

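The tissue calls of Suz12 and Ezh2 kept their direction and passed under every alternative run. Of 518 single-gene alternatives with a test, 477 kept direction and call, 32 lost the call, 8 gained it and 1 reversed, the Dox difference of Suz12, which was 0.016 under median centring (adjusted p = 0.933 by limma). In the tissue contrast 10441 genes passed without the outlying array and 11650 with array weights, against 6621, and 5 members passed both without that array and when only the groups compared were fitted. In the Dox contrast 52 genes passed, against 463 after quantile normalization, 8 in a fit of the groups compared, 1519 with array weights and 31 with the Y-linked covariate. In the interaction 1 gene passed, against 0 after quantile normalization, 5 in a fit of the groups compared, 12 without the outlying array and 35 with array weights. Between genotypes in esophagus 77 genes passed, against 2, 8, 763 and 858 under the same alternatives in that order and 7 with the covariate. The Suz12 interaction was 0.74 and its esophageal genotype difference 0.72 after quantile normalization. With the covariate the Ezh2 interaction was -0.12, and the esophageal genotype differences of Ezh2 and Jarid2 were -0.28 and -0.0088. The causes were not tested.

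Arrays of the groups compared were left out 1 at a time. In the tissue contrast this gave 4774 (without WT marrow with Dox replicate 1) to 7452 (without WT esophagus replicate 1) genes and 2 to 3 members. The outlying array is not among those 12, nor in the interaction or the esophageal genotype contrast. When it was left out, 10441 genes and all members passed in the tissue contrast. The Dox contrast gave 19 (without WT replicate 3, no Dox) to 97 (without KO replicate 1, no Dox) genes and 0 members. The interaction gave 1 to 34 genes (34 without WT esophagus replicate 1) with Suz12 at 1.49 to 1.70, and the esophageal genotype contrast gave 22 (without KO replicate 1) to 532 (without WT replicate 1) genes with Suz12 at 1.50 to 1.72.

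The replicate numbers did not meet the condition for pairing, that every same-numbered pair deviate together with r above 0.1. Over 40 same-numbered pairs r ranged from -0.0999 to 0.231 and 11 exceeded 0.1, against 9 of 80 differently numbered pairs. With the replicate number as a block, 6962 genes and 2 members passed in the tissue contrast and 47 genes between genotypes in esophagus. With a block for genotype and number, 8462 genes and 4 members passed in the tissue contrast, and 0 genes in the interaction. The tissue calls of Ezh1 (limma adjusted p = 0.0518 and 0.094) and Pcgf1 (0.0515 and 0.0676) were lost under these 2 blocks.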
